A study of Rattus norvegicus with 16 samples.

Results

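Interferon response genes are the genes that cells switch on after an interferon binds its receptor. Of these, 9 were chosen by name: the transcription factor genes Stat2, Irf9, Irf1 and Irf7, and the effector genes Isg15, Ifit2, Ifit3, Mx1 and Bst2. The deposited tables hold 17085 genes; 8 of the 9 have a row there, and all 8 were among the 11376 genes that passed the filter on low counts. The expression of Bst2, which encodes tetherin, was not analysed here. RNA was sequenced in bulk from rat hearts, from tissue labelled as infarct zone, in 16 libraries that fall into 4 groups of 4. MI_stiff and MI_soft hearts had the left anterior descending coronary artery tied off and were treated with a stiff or a soft hydrogel, a water-swollen polymer network injected into the heart muscle. MI hearts had the ligation without a gel, and Sham hearts were the controls of the operation. The labels used here do not give strain, sex, age, the time after ligation or the composition of the gels. A protocol text writes MI/R, which often means reperfusion after the infarct, so it is not known here whether flow was restored. Nor do the labels tie each library to its own animal, so a p-value speaks of the spread among libraries, and part of that spread may be technical.

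Type I interferons bind a receptor of Ifnar1 and Ifnar2 chains, whose Janus kinases phosphorylate Stat2. Stat2 and Irf9 are part of a complex that enters the nucleus and binds interferon-stimulated response elements in promoters. Interferon gamma acts through another receptor, and its signal reaches promoters at gamma-activated sites. In infarcted mouse hearts, macrophages that take up DNA from dying cells are known to produce type I interferon through Irf3. That mechanism is known from mice, and neither interferon protein nor DNA sensing was measured here.

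The promoters below show the letters by which these factors are known to bind. The first 4 belong to Ifit3 and Irf7, and to the pathway genes Oas1a and Lgals9, which were chosen after their values were seen, from those that were high in the library described below and hold a match. Oasl, which was higher there than Lgals9 by the ratio to other libraries given below, has a window with no match. These 4 hold the core of the interferon-stimulated response element, searched as GAAA, any 2 bases and GAAA, on either strand. The other 2, Irf1 and Irf9, are members whose windows hold a gamma-activated site, searched as TTC, any 3 bases and GAA, which reads the same on either strand. Capitals mark the matched letters; each stretch is 30 bases, 5′ to 3′ on the gene's own strand, from RefSeq on the GRCr8 assembly, which is another build than that of the counts.
Ifit3, chr1:241527272-241527301, plus strand, first matched base 44 before the start: tttaagtctgTTTCAGTTTCtagtttccac
Irf7, chr1:205800073-205800102, minus strand, 69 before the start: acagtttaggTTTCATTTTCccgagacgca
Oas1a, chr12:41330418-41330447, plus strand, 2 overlapping matches from 41 before the start: ctctcggGAAATGGAAACTGAAAatcttgt
Lgals9, chr10:64428071-64428100, minus strand, 16 before the start: ccaagtagctgtggTTTCTGTTTCctagct
Irf1, chr10:38417783-38417812, plus strand, 142 before the start: acagcctgatTTCCCCGAAatgatgaggcg
Irf9, chr15:33065727-33065756, plus strand, 99 before the start: accacgtgatTTCTAGGAActgcacctccc

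In windows of 250 bases before to 50 bases after each start, the response element core was found in 3 of the 7 members with a window, Irf7, Ifit3 and Bst2. It was found in 47 of 113 windows of other genes of the interferon pathway (41.6%) and in 1312 of all 33469 windows (3.92%). The gamma-activated site was found in Irf1, Irf9 and Bst2, in 25 of the 113 pathway windows (22.1%) and in 2970 of all windows (8.87%). The windows of Stat2 and Mx1 held neither run of letters. A match is a run of letters and not a measured binding site.

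Library totals lay between 10940685 and 14456186 counts. Levels are given as CPM, the count of a gene scaled to library size with edgeR's TMM factors. Before any group is compared, 1 library has to be set apart. MI_soft 4 had the highest level of all 16 libraries for 7 of the 8 members (87.5%), against 2123 of the 11376 tested genes (18.7%). It was more than 2-fold above the next-highest library for 4 members, Irf7, Mx1, Isg15 and Irf9, against 114 of all tested genes (1%). The exception was Ifit2, which was highest in MI 4. MI_soft 4 had 11785 genes with at least 1 count, against 12577 to 12819 in MI_soft 1 to 3. MI 2, MI 3 and MI 4 had fewer, 10470 to 11283, whereas MI 1 had 12820. The calls of MI_soft hearts against Sham hearts are given with and without it. What sets this library apart is not known here: the labels used here do not give the health of the animals, and the identity of the library was not tested. As a check of the labelled tissue, 8 fibroblast markers summed to 11880 to 18290 CPM in MI_stiff, 14280 to 19510 CPM in MI_soft, 14220 to 23050 CPM in MI and 2777 to 3580 CPM in Sham, so the 3 infarct groups stood apart from Sham in every library.

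**Figure D1:**
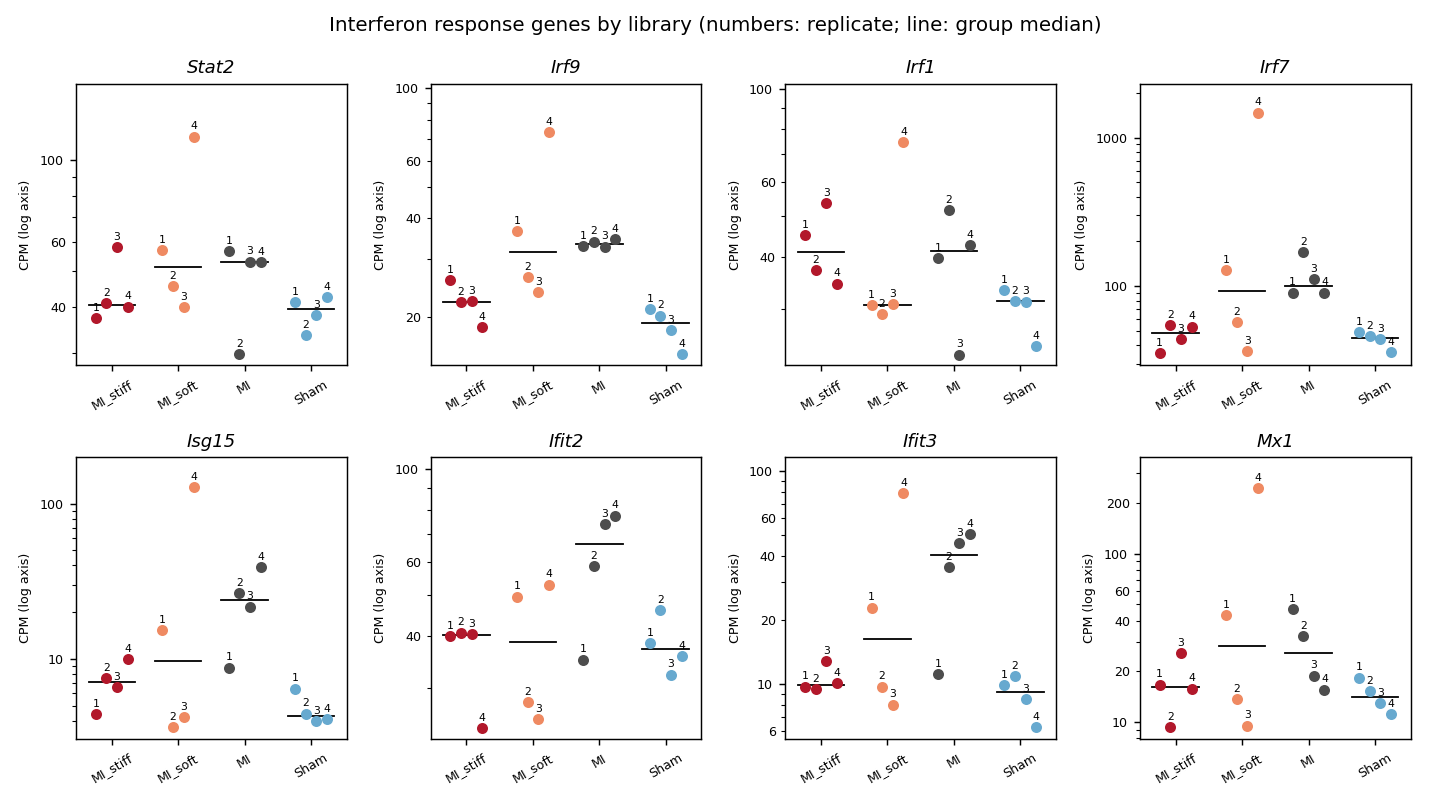
CPM (vertical log axis, a separate scale in each panel) of the 8 measured interferon response genes in each library of the 4 groups; points are libraries with their replicate number and lines are group medians (n = 4 each). MI_soft 4 is the highest point in every panel except Ifit2, and Irf7 reached 1471 CPM there.

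The 4 transcription factor genes were expressed in every library. On the TPM scale, which corrects for transcript length and so lets genes be compared, Irf7 had the highest level of the 8 members in Sham hearts, at 19.6 ± 3.41 TPM, followed by Irf1 at 13.0 ± 2.17 and Irf9 at 10.6 ± 1.79 (mean ± SD, n = 4). Stat2, Isg15 and Ifit2 were within 1 SD of each other there, at 9.34 ± 1.94, 9.33 ± 3.05 and 9.05 ± 0.83 TPM. Ifit3 and Mx1 were the lowest, at 3.74 ± 0.724 and 3.58 ± 0.933 TPM, and also differed by less than 1 SD.

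Irf9, the DNA-binding subunit of the complex with Stat2, was the steadiest of the members within MI. Its level was 25.9, 22.2, 22.3 and 18.6 CPM in MI_stiff libraries 1 to 4 and 36.5, 26.5, 23.7 and 73.4 CPM in MI_soft. It was 32.9, 33.9, 32.7 and 34.5 CPM in MI and 21.1, 20.2, 18.2 and 15.4 CPM in Sham. All MI and all MI_soft libraries were above all Sham libraries, and all MI_stiff libraries were below all MI libraries.

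Stat2, the transactivating partner of Irf9, was at 37.4, 41.0, 58.2 and 40.2 CPM in MI_stiff and at 57.2, 45.7, 40.1 and 116 CPM in MI_soft. It was at 56.6, 29.8, 53.1 and 52.9 CPM in MI and at 41.2, 33.7, 38.1 and 42.6 CPM in Sham. The 4 groups overlapped, MI 2 being the lowest library of all and MI_soft 4 the highest.

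Irf1, a factor induced mainly by interferon gamma, was at 44.9, 37.2, 53.5 and 34.5 CPM in MI_stiff and at 30.7, 29.2, 30.9 and 74.6 CPM in MI_soft. It was at 39.7, 51.5, 23.5 and 42.6 CPM in MI and at 33.3, 31.4, 31.3 and 24.6 CPM in Sham. MI_soft 1 to 3 lay inside the Sham range, and the 4 MI_stiff libraries all lay above it.

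Irf7, the factor that amplifies transcription of type I interferon genes, was at 35.4, 54.5, 44.1 and 53.5 CPM in MI_stiff and at 128, 57.0, 36.7 and 1471 CPM in MI_soft. It was at 90.6, 169, 112 and 90.6 CPM in MI and at 49.4, 46.3, 43.9 and 35.9 CPM in Sham. MI stood above both MI_stiff and Sham with no overlap, while the MI_soft libraries ran from the Sham range to a level 8.68 times that of the next-highest library.

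Isg15, a ubiquitin-like protein that is attached to other proteins, was at 4.44, 7.56, 6.61 and 9.94 CPM in MI_stiff and at 15.3, 3.65, 4.23 and 128 CPM in MI_soft. It was at 8.79, 26.5, 21.8 and 38.9 CPM in MI and at 6.45, 4.45, 3.96 and 4.12 CPM in Sham. MI lay above Sham throughout, with MI 1 nearest to it, and MI_soft 2 and 3 were inside or below the Sham range.

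Ifit3 and Ifit2 encode tetratricopeptide repeat proteins that act against viral RNA. Ifit3 was at 9.72, 9.49, 12.8 and 10.1 CPM in MI_stiff and at 22.9, 9.73, 7.996 and 78.7 CPM in MI_soft. It was at 11.1, 35.4, 45.9 and 50.5 CPM in MI and at 9.87, 10.9, 8.46 and 6.26 CPM in Sham. MI 1 exceeded the highest Sham library by little, whereas MI 2, MI 3 and MI 4, the libraries with the fewest genes detected, exceeded it several times over.

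Ifit2 was at 39.96, 40.7, 40.4 and 24.04 CPM in MI_stiff and at 49.6, 27.8, 25.3 and 53.0 CPM in MI_soft. It was at 35.1, 58.6, 74.0 and 77.5 CPM in MI and at 38.5, 46.1, 32.3 and 35.7 CPM in Sham. MI 1 again stood apart from MI 2 to 4, here inside the Sham range. Both genes are on chromosome 1 of the GRCr8 assembly. MI_soft 4 was far above the other MI_soft libraries for Ifit3 and near the level of MI_soft 1 for Ifit2.

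Mx1, a dynamin-like GTPase that blocks viruses, was at 16.7, 9.33, 25.6 and 15.8 CPM in MI_stiff and at 43.2, 13.6, 9.52 and 244 CPM in MI_soft. It was at 47.0, 32.4, 18.9 and 15.6 CPM in MI and at 18.4, 15.3, 13.0 and 11.1 CPM in Sham. All groups overlapped, and here MI 1 was the highest MI library rather than the lowest.

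Coronary ligation without a gel was set against the control operation first. Irf9, Isg15 and Ifit3 rose in MI hearts, and the other 5 members did not pass the test. Ifit3 rose by 2.01 ± 0.58 on the log2 scale (estimate ± SE; adjusted p = 0.0122), Isg15 by 2.33 ± 0.83 (adjusted p = 0.0357) and Irf9 by 0.84 ± 0.28 (adjusted p = 0.0264), with edgeR's quasi-likelihood test over all tested genes. These 3 of 8 stand beside 36.6% of all tested genes called in this comparison, 20.2% called higher. For all 3 genes, and for Irf7, the 4 MI libraries lay above the 4 Sham libraries; 17.7% of tested genes did so. The difference of Irf7 was 1.40 ± 0.77 (adjusted p = 0.161), and those of Ifit2 and Mx1 were 0.68 ± 0.28 (adjusted p = 0.0681) and 0.98 ± 0.71 (adjusted p = 0.291). Irf1 and Stat2 differed by 0.38 ± 0.30 and 0.31 ± 0.29 (adjusted p = 0.327 and 0.433). The median difference was 0.91 over the 8 members and 0.06 over all tested genes.

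In bulk tissue a change in the number of cells of a type and a change in RNA per cell cannot be told apart. The summed level of 11 macrophage markers was 520 to 1636 CPM in MI and 187 to 214 CPM in Sham; of the markers, Cx3cr1 was at 0 in MI 2 and MI 3. Within MI, Ifit2, Ifit3 and Isg15 were lowest in MI 1, the library with the highest macrophage sum, whereas Stat2 and Mx1 were highest there. Irf1 and Irf9 were neither lowest nor highest in MI 1, and Irf7 was nearly level there with its lowest MI library. The summed level of 7 endothelial markers was 769 CPM in MI 1, 995 to 1152 CPM in MI 2 to 4 and 695 to 753 CPM in Sham. The part of cell composition in these differences was not tested.

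The calls of this comparison moved with single libraries. Leaving out MI_soft 4, which is in neither group but shares the estimate of spread, 5 members were called higher, beside 43.7% of genes called and 23.8% called higher: Irf7 rose by 1.42 ± 0.31 (adjusted p = 0.00145) and Ifit2 by 0.71 (adjusted p = 0.04), and Irf9, Isg15 and Ifit3 remained. MI_soft 4 was singled out by the members' own values, so the calls made without it are not independent of that choice. Ifit3 alone was called when MI 2, MI 4, Sham 3 or Sham 4 was left out, and Isg15 was also not called without Sham 1 or without Sham 2. Without MI 1, Ifit2 was called as well (adjusted p = 0.0212), beside 41.4% of genes called. Over the fits that left out 1 library, the share of genes called ran from 28.6% to 43.7%. Without MI 2, MI 3, MI 4 and MI_soft 4, which leaves MI 1 alone and assumes that it varies as the other groups do, Ifit3 differed by 0.35 (adjusted p = 0.612), Isg15 by 0.91 (adjusted p = 0.285) and Ifit2 by -0.10, and Irf9 was the only member called, beside 27.3% of genes.

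**Figure D2:**
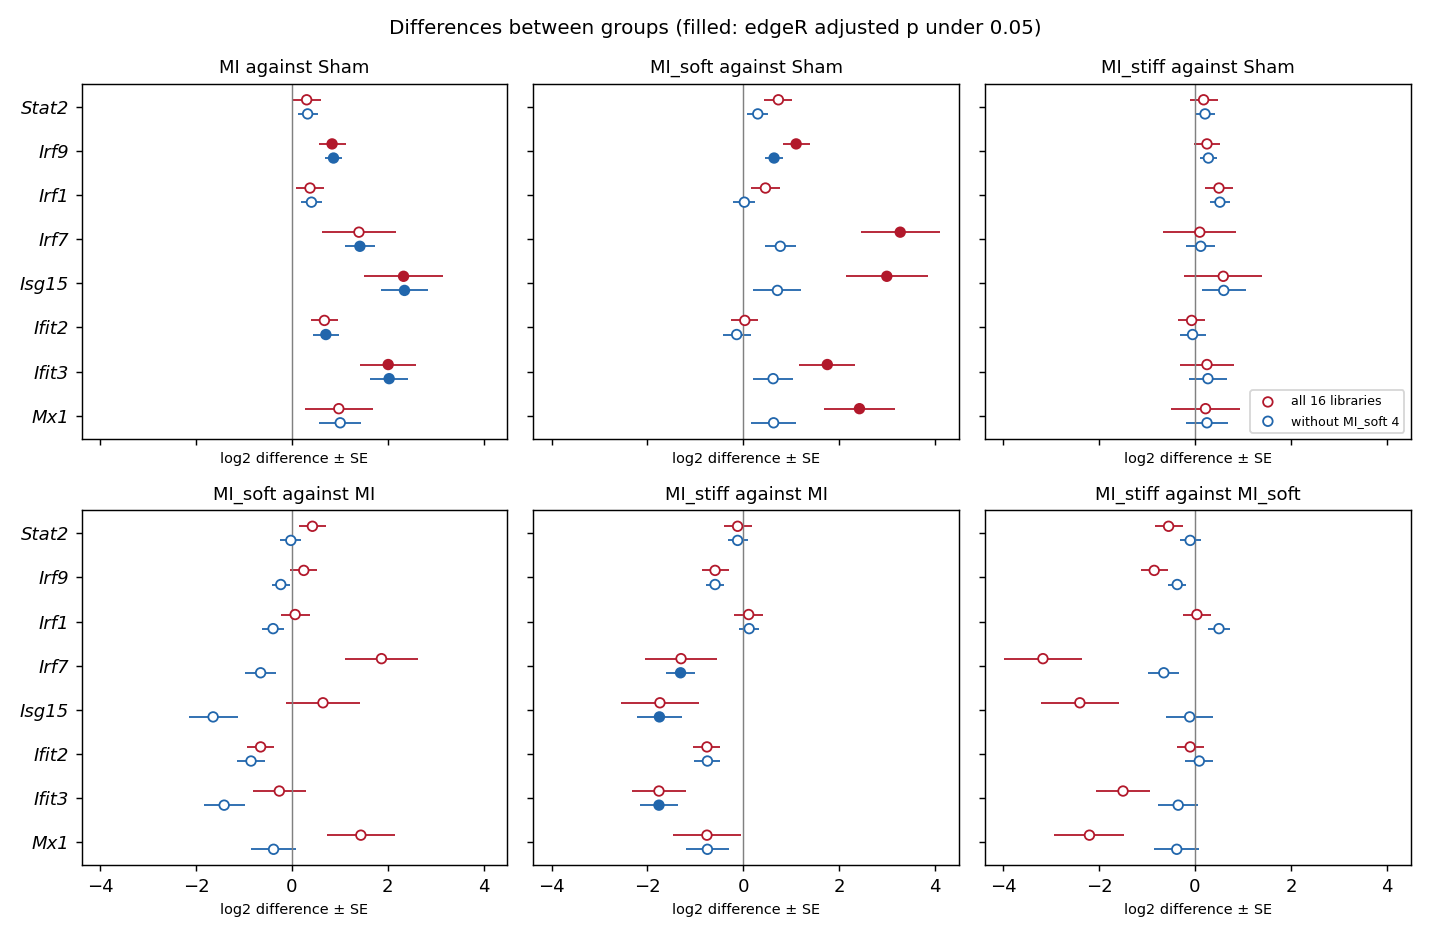
Log2 difference (horizontal axis; points with bars of ± 1 SE) of each member in the 6 comparisons, with all 16 libraries in red and without MI_soft 4 in blue; filled points have an edgeR adjusted p under 0.05. MI against Sham kept its estimates when MI_soft 4 was left out (Irf7 1.40 and 1.42), whereas in MI_soft against Sham that of Irf7 was 3.27 with it and 0.77 without it.

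With the soft gel, 5 members rose in MI_soft hearts relative to Sham hearts: Irf7 by 3.27 ± 0.82 (adjusted p = 0.00717), Isg15 by 2.99 ± 0.85 (adjusted p = 0.0149), Mx1 by 2.42 ± 0.74 (adjusted p = 0.022), Ifit3 by 1.75 ± 0.58 (adjusted p = 0.0331) and Irf9 by 1.10 ± 0.28 (adjusted p = 0.00845). The share of all tested genes called was 26.1%, with 16.4% called higher. Irf9 was the only member whose MI_soft and Sham libraries did not overlap; 20.9% of tested genes had every MI_soft library above every Sham library. Stat2 differed by 0.73 ± 0.29 (adjusted p = 0.0741) and Irf1 by 0.46 ± 0.30 (adjusted p = 0.271), and Ifit2 averaged 38.9 ± 14.4 CPM in MI_soft and 38.2 ± 5.86 CPM in Sham (SD, n = 4 each).

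Without MI_soft 4, Irf9 was the 1 member called, with a rise of 0.64 ± 0.19 (adjusted p = 0.0208), beside 24% of genes called. Irf7 then differed by 0.77 (adjusted p = 0.0968), Isg15 by 0.71 (adjusted p = 0.328), Mx1 by 0.63 (adjusted p = 0.366) and Ifit3 by 0.62 (adjusted p = 0.312). Leaving out any of Sham 2, Sham 3 or Sham 4 reduced the members called from 5 to 3, Irf7, Irf9 and Isg15. The share of all genes called in these fits was also lower, at 19.4%, 20.3% and 18.8% in the same order. Without Sham 1 Ifit3 was not called (adjusted p = 0.0669), beside 18.6% of genes called. Without MI_soft 3, Stat2 was called too (0.90, adjusted p = 0.0337), beside 24.7% of genes called. A limma-voom fit of the same counts called only Irf9 of the members and 28.2% of genes.

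With the stiff gel, none of the 8 members was called in MI_stiff hearts relative to Sham hearts by edgeR, and none had an unadjusted p under 0.05, beside 21.2% of all tested genes called and 3881 genes with an unadjusted p under 0.05. DESeq2 and limma-voom also called none, beside 24.5% and 21.7% of genes called. The members' median difference was 0.24, against 0.02 over all tested genes. Irf1 was the only member whose difference exceeded its SE, at 0.50 ± 0.30 (adjusted p = 0.261), and all 4 MI_stiff libraries were above all Sham libraries, as for 19.3% of tested genes. Irf1 was called in 3 other fits: with libraries weighted by quality (adjusted p = 0.0291), with MI_stiff and Sham fitted alone (0.0314) and without the 4 libraries with few genes detected (0.0171). The shares of all genes called in these fits were 45.7%, 41.8% and 41.2%. Irf7 averaged 46.9 ± 8.95 CPM in MI_stiff and 43.9 ± 5.76 CPM in Sham, and Ifit3 averaged 10.5 ± 1.54 CPM in MI_stiff and 8.87 ± 2.0 CPM in Sham (SD, n = 4 each). The summed macrophage markers were 669 to 2633 CPM in MI_stiff, above the 187 to 214 CPM of Sham in every library.

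Between infarcts, MI_stiff hearts had estimates below those of MI hearts for 7 of the 8 members, but no member was called by edgeR. The background was 1.19% of tested genes called. Of the 8 members, 4 had an unadjusted p under 0.05, beside 1938 of all tested genes. The difference was -1.76 ± 0.57 for Ifit3 (adjusted p = 0.134), -1.74 ± 0.81 for Isg15 (adjusted p = 0.28), -1.30 ± 0.76 for Irf7 (adjusted p = 0.398), -0.76 ± 0.28 for Ifit2 (adjusted p = 0.191), -0.76 ± 0.71 for Mx1 (adjusted p = 0.609) and -0.59 ± 0.28 for Irf9 (adjusted p = 0.29). Irf7 and Irf9 had all 4 MI_stiff libraries below all 4 MI libraries, as did 3.9% of tested genes. The median difference was -0.76 over the members and 0.01 over all tested genes.

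Leaving out MI_soft 4, which again is in neither group, 3 members were called lower in MI_stiff than in MI: Ifit3 fell by 1.76 ± 0.40 on the log2 scale (adjusted p = 0.0222), Irf7 by 1.31 ± 0.31 (adjusted p = 0.0256) and Isg15 by 1.75 ± 0.46 (adjusted p = 0.0416). The background was then 4.62% of genes called, 2.56% called lower. MI_soft 4 was singled out by the members' own values. Leaving it out narrowed their SE while the differences hardly moved (SE of Irf7 0.76 with it and 0.31 without it). These adjusted p-values are thus not independent of that choice. Without MI 1, Ifit2 and Ifit3 were called lower (adjusted p = 0.0358 and 0.0273), beside 10.9% of genes called. DESeq2 on all libraries called Ifit3 lower (adjusted p = 0.0408) and 4.67% of genes. A fit of MI_stiff and MI alone called no member, beside 0.12% of genes called. Against MI 1 alone, without the 4 libraries with few genes detected, the differences of Ifit2, Ifit3, Isg15 and Irf7 were 0.05, -0.08, -0.30 and -0.95.

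Between MI_soft and MI hearts no member was called: 0 of 8 passed with edgeR, with DESeq2 and with limma-voom. The shares of all genes called were 0.0264%, 2.39% and 0.0615% in the same order. With edgeR, 2 members had an unadjusted p under 0.05, beside 1761 of the 11376 tested genes. The direction depended on MI_soft 4. The difference of Irf7 was 1.87 ± 0.77 with it (adjusted p = 0.269) and -0.65 without it (adjusted p = 0.336), that of Mx1 was 1.44 ± 0.71 with it (adjusted p = 0.34) and -0.38 without it, and that of Stat2 was 0.43 ± 0.29 with it (adjusted p = 0.495) and -0.02 without it. Ifit2, the member that was not highest in MI_soft 4, was at -0.65 ± 0.28 (adjusted p = 0.291), and it was called lower in MI_soft when MI 1 was left out (-0.85, adjusted p = 0.0474). The share of genes called was 13.1% in that fit, near the 1 of 8 members.

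The stiff and the soft gel were compared directly. No member was called by edgeR, beside 0.0967% of tested genes called. Of the 8 members, 5 had an unadjusted p under 0.05, beside 1631 of the 11376 tested genes. Irf7 differed by -3.17 ± 0.81 (adjusted p = 0.111), Isg15 by -2.40 ± 0.82 (adjusted p = 0.21), Mx1 by -2.20 ± 0.73 (adjusted p = 0.197), Ifit3 by -1.50 ± 0.57 (adjusted p = 0.252), Irf9 by -0.85 ± 0.28 (adjusted p = 0.197) and Stat2 by -0.55 ± 0.29 (adjusted p = 0.403). The libraries of the gels overlapped for all 8 members. DESeq2 called Irf7 lower in MI_stiff (adjusted p = 0.0158), beside 2.33% of genes called, and without MI_soft 4 the edgeR difference of Irf7 was -0.65 (adjusted p = 0.586) and that of Isg15 -0.11 (adjusted p = 0.977). The MI and Sham libraries are shared between several of these comparisons, so their values do not bear on each other independently.

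MI_soft 4 was then compared with the highest of MI_soft 1 to 3, gene by gene, as a description of 1 library. Its ratio was 11.5 for Irf7, 8.34 for Isg15 and 5.65 for Mx1, which ranked 2, 5 and 12 among the 11376 tested genes. The ratio was 3.44 for Ifit3, 2.41 for Irf1, 2.02 for Stat2, 2.01 for Irf9 and 1.07 for Ifit2. The first rank was held by Oas1a, a synthetase of the signal that activates RNase L, at 170 CPM in MI_soft 4 against 14.04 CPM in MI_soft 1 (ratio 12.1). Oasl, a relative of Oas1a, had a ratio of 9.53, the feedback inhibitor Usp18 one of 6.08 and the galectin gene Lgals9 one of 5.59. Of the 20 highest ratios, 3 belonged to members, 4 to other genes of the pathway lists and 13 to neither. Among the 13 were the class II gene RT1-Bb (6.56), the natural killer cell gene Nkg7 (5.61) and Ly6e (5.21). Some of them rest on few counts, such as Plcd4 at 1.34 CPM in MI_soft 4 and at most 0.132 CPM in MI_soft 1 to 3. Tmigd3 and LOC100911796, also of the 13, had equal values. Whether genes outside the lists respond to interferon was not checked.

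**Figure D3:**
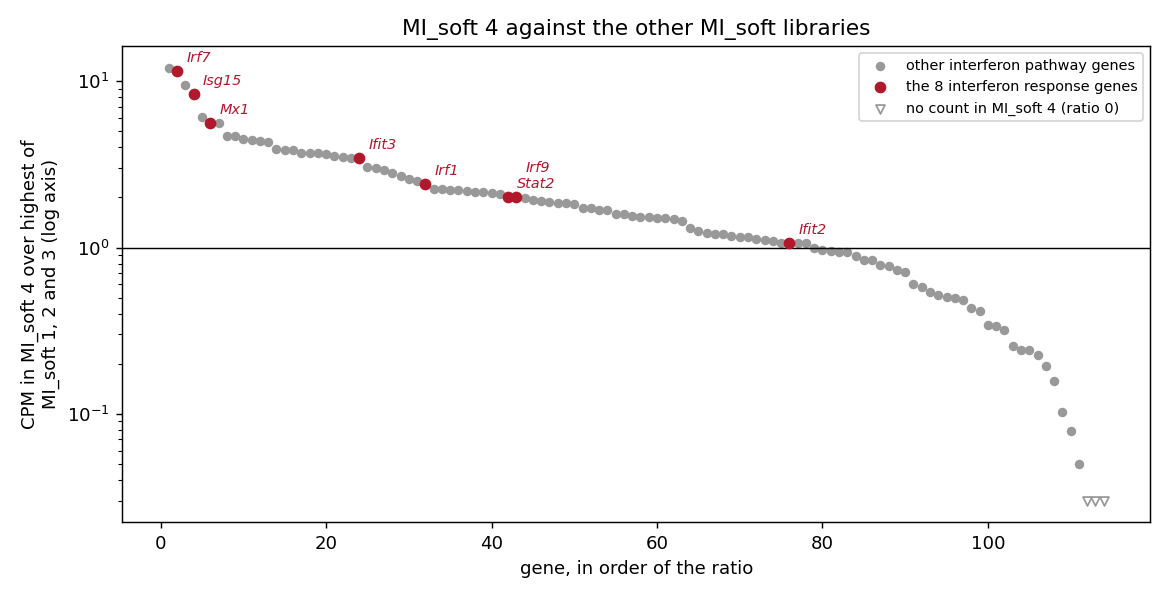
CPM in MI_soft 4 divided by the highest of MI_soft 1, 2 and 3 (vertical log axis) for the 114 tested interferon pathway genes, ordered by that ratio; members are red, other pathway genes grey, and triangles at the bottom are 3 genes with no count in MI_soft 4. The ratio was above 1 for 78 of the genes, and Irf7, Isg15 and Mx1 are among the 6 highest. As background, the pathway gene Pias3, with a ratio of 1 after rounding, ranked 4382 among all 11376 tested genes.

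Of 106 other pathway genes tested, 54 were highest in MI_soft 4 (50.9%), and 12 were lowest there (11.3%), against 24.1% of all tested genes lowest there. Rsad2, which encodes the antiviral enzyme viperin, was at 1.76 CPM in MI_soft 4 and at 2.66 to 9.04 CPM in MI_soft 1 to 3. Herc6, a ligase for Isg15 in mice, was at 6.10 CPM in MI_soft 4 and at 7.53 to 24.1 CPM in MI_soft 1 to 3.

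Other properties of MI_soft 4 are given here as a description of 1 library, which cannot show that they go with the members' levels. The summed macrophage markers were at 5504 CPM in MI_soft 4, against 1749 to 2722 CPM in MI_soft 1 to 3, with none of the 11 markers at 0. The 11 lymphocyte markers summed to 110 CPM in MI_soft 4 and to 48.3 to 312 CPM in MI_soft 1 to 3, so MI_soft 4 was inside the range of the others. Endothelial markers summed to 877 CPM in MI_soft 4, against 532 to 568 CPM in MI_soft 1 to 3, neutrophil markers to 22.3 against 5.55 to 11.3 CPM (Retnlg being at 0 in MI_soft 4), and cardiomyocyte markers to 41840 against 30450 to 36280 CPM. Dendritic cell markers summed to 18.8 CPM in MI_soft 4, against 27.5 to 28.5 CPM in MI_soft 1 to 3. Fibroblast markers summed to 15990 CPM in MI_soft 4, inside the 14280 to 19510 CPM of MI_soft 1 to 3. MI_soft 4 also had lower values of long transcripts: its median log2 ratio to the median of MI_soft 1 to 3 was 0.40 in the class of genes with the shortest transcripts, then 0.05 and -0.19, and -0.71 in the class with the longest (4 classes of nearly equal size). All 8 members were above the median of their own class, with Mx1 at 4.12 and Stat2 at 1.33 in the longest class and Isg15 at 4.76 in the shortest. Other pathway genes had medians of 1.35, 0.92, 1.10 and -0.03 from the shortest class to the longest. The part of cell content and of the length pattern in these values was not tested.

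The rest of the pathway was described with 7 lists of 142 further genes, of which 115 have a row and 106 were tested. Interferon genes themselves were at or near 0: of 12 listed ligands 8 have a row and none passed the filter. Ifnb1, which encodes interferon beta, had no count in any library (a count of 0 allows up to 3 counts, or 0.208 to 0.274 CPM before the TMM factors), and Ifng, which encodes interferon gamma, had at most 4 counts in a library. These limits cover counting error only, and ligand protein was not measured.

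Relative to Sham hearts, 43 of the 106 pathway genes rose and 4 fell in MI_soft hearts (median 0.82), 23 rose and 2 fell in MI_stiff hearts (median 0.31), and 30 rose and 7 fell in MI hearts (median 0.62). The shares of all tested genes called were 26.1% in MI_soft, 21.2% in MI_stiff and 36.6% in MI. Without MI_soft 4 the counts were 28 and 2 for MI_soft, 30 and 3 for MI_stiff and 46 and 12 for MI, beside 24%, 27.9% and 43.7% of all genes called. Oas1b, Oas1f and Oas1k had identical counts and were each counted; taken as 1 measurement, 41 rose in MI_soft, 21 in MI_stiff and 28 in MI hearts with all libraries. The counts of the single lists below stand beside the same shares of all genes, 21.2% in MI_stiff, 26.1% in MI_soft and 36.6% in MI with all libraries. Whether the members and the rest of the pathway differ in MI_stiff was not tested.

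The interferon-induced membrane proteins, which block viral entry, had the smallest adjusted p-values of the pathway genes. Ifitm1 rose by 3.01 ± 0.38 in MI_stiff (adjusted p = 3.09e-05), by 2.91 ± 0.38 in MI_soft (adjusted p = 2.83e-05) and by 2.48 ± 0.37 in MI hearts (adjusted p = 8.1e-05), each against Sham. Ifitm3 rose by 1.33 ± 0.35 in MI_stiff, 2.31 ± 0.37 in MI_soft and 2.59 ± 0.37 in MI hearts, and Ifitm2 by 1.16 ± 0.27, 1.85 ± 0.28 and 2.15 ± 0.28 in the same order. Ifi27l2b, a relative of the interferon-inducible gene Ifi27, rose by 3.33 ± 0.63 in MI_soft and by 3.05 ± 0.62 in MI hearts, and differed by 1.23 ± 0.59 in MI_stiff (adjusted p = 0.153). Shisa5 rose by 0.96 ± 0.22 in MI_stiff, 1.45 ± 0.23 in MI_soft and 1.45 ± 0.23 in MI hearts, and the Schlafen gene Slfn13 by 1.60 ± 0.24, 1.25 ± 0.24 and 1.24 ± 0.24. The antiviral effector list as a whole had 10 genes higher and 0 lower of 43 tested in MI_stiff, 22 and 2 in MI_soft and 16 and 2 in MI hearts. With the 3 Oas1 genes of identical counts taken once, 8, 20 and 14 of 41 were higher in the same order. Without MI_soft 4, 14 of the 43 were higher and 1 lower in MI_soft, where Ifi27l2b rose by 1.94 ± 0.37, Ifitm3 by 1.66 ± 0.23, Ifitm2 by 1.47 ± 0.21 and Ifitm1 by 2.56 ± 0.34. Shisa5 then rose by 1.32 ± 0.22 and Slfn13 by 1.19 ± 0.24.

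Sensors of nucleic acids and their adaptors start interferon production. Of 13 tested, 5 were higher and 1 lower in MI_stiff, 6 and 1 in MI_soft, and 5 and 1 in MI hearts, all against Sham. Tlr7, a receptor for single-stranded RNA, rose by 1.79 ± 0.38 in MI_stiff, 2.43 ± 0.39 in MI_soft and 1.26 ± 0.38 in MI hearts. Its chaperone gene Unc93b1 rose by 2.31 ± 0.43, 2.69 ± 0.44 and 1.53 ± 0.43, the adaptor gene Myd88 by 1.39 ± 0.20, 1.37 ± 0.20 and 1.26 ± 0.20, and the kinase gene Ikbke by 1.90 ± 0.39, 2.50 ± 0.40 and 1.69 ± 0.39, in the same order of groups. Sting1, the adaptor of cytosolic DNA sensing, rose by 1.69 ± 0.40 in MI_stiff, 2.20 ± 0.40 in MI_soft and 1.11 ± 0.39 in MI hearts. The gene that fell was Mavs, the mitochondrial adaptor of RNA sensing, by 1.09 ± 0.19 in MI_stiff, 0.54 ± 0.19 in MI_soft and 1.31 ± 0.19 in MI hearts. Without MI_soft 4, 5 sensors were higher and 0 lower in MI_soft: Mavs was at -0.53 ± 0.19 (adjusted p = 0.0542), Tlr7 rose by 2.59 ± 0.39, Unc93b1 by 2.35 ± 0.42, Myd88 by 1.28 ± 0.20, Ikbke by 2.21 ± 0.38 and Sting1 by 1.85 ± 0.38.

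Among receptors and Janus kinases, 3 of 7 rose in MI_stiff, 1 rose and 1 fell in MI_soft, and 2 rose in MI hearts relative to Sham. Ifngr1, a chain of the interferon gamma receptor, rose by 1.0 ± 0.22 in MI_stiff, 1.44 ± 0.22 in MI_soft and 1.43 ± 0.22 in MI hearts. Without MI_soft 4, its rise in MI_soft was 1.37 ± 0.22, and 1 of 7 rose and 0 fell there. Ifnar1, a chain of the type I interferon receptor, was the only pathway gene called between infarct groups with all libraries. It was at 88.6, 119, 115 and 102 CPM in MI_stiff, at 68.4, 62.0, 66.3 and 67.7 CPM in MI and at 66.1, 72.7, 60.6 and 66.0 CPM in Sham. It rose in MI_stiff by 0.68 ± 0.15 relative to MI (adjusted p = 0.0387) and by 0.68 ± 0.15 relative to Sham (adjusted p = 0.00348), and differed by 0.65 ± 0.15 relative to MI_soft (adjusted p = 0.0823). Without MI_soft 4, 7 of 106 pathway genes were called between MI_stiff and MI, beside 4.62% of all genes: Ifnar1 and Trim25 were higher in MI_stiff, and Ifitm2, Ifitm3, Ifi27l2b, Mx2 and Lgals9 were lower. Without MI 1, 6 pathway genes were higher and 9 lower in MI_stiff than in MI, beside 10.9% of all genes called, and 9 were higher and 6 lower in MI_soft than in MI, beside 13.1%.

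Of the other transcription factors, 1 of 8 rose in MI_stiff, 3 in MI_soft and 1 in MI hearts relative to Sham. Irf5, a factor of myeloid cells, rose by 2.38 ± 0.46 in MI_stiff, 2.55 ± 0.46 in MI_soft and 1.53 ± 0.45 in MI hearts. In the list of gamma-responsive GTPases, chemokines and antigen processing, 3 of 26 rose and 1 fell in MI_stiff, 9 rose in MI_soft, and 5 rose and 2 fell in MI hearts. Psmb8, a subunit of the immunoproteasome, rose by 1.14 ± 0.32 in MI_stiff, 1.62 ± 0.32 in MI_soft and 1.84 ± 0.32 in MI hearts. The class I genes RT1-A2 and RT1-CE5 rose in all 3, by 1.28 ± 0.24 and 1.38 ± 0.25 in MI_stiff, 1.33 ± 0.24 and 0.98 ± 0.24 in MI_soft and 1.48 ± 0.24 and 1.22 ± 0.25 in MI hearts; such genes have near-identical copies and are uncertain. Of 9 feedback inhibitors, 1 rose in MI_stiff, 2 rose in MI_soft, and 1 rose and 2 fell in MI hearts. Without MI_soft 4, MI_soft hearts had 3 of the 8 factors higher, 4 of the 26 gamma-responsive genes higher and 1 lower, and 1 of the 9 inhibitors higher. Irf5 then rose by 2.27 ± 0.46, Psmb8 by 1.16 ± 0.24, RT1-A2 by 1.24 ± 0.23 and RT1-CE5 by 1.0 ± 0.25.

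The genes whose levels ran most like the members' were named as a description, by the Pearson correlation with the mean of the 8 members' standardised log2 CPM over libraries. The members' mean was 2.45 standard deviations in MI_soft 4, between -0.77 and 0.49 in MI_soft 1 to 3, between -0.55 and 0.06 in MI_stiff, between 0.21 and 0.78 in MI and between -0.88 and -0.39 in Sham. Over the 16 libraries the most alike were Rtp4 (0.952), Gbp2 (0.948), Irgm (0.941), Ube2l6 (0.928) and Oas1a (0.924). These values share MI_soft 4: over the other 15 libraries they were 0.893 for Rtp4, 0.867 for Gbp2, 0.894 for Irgm, 0.851 for Ube2l6 and 0.813 for Oas1a. Ranked over those 15 libraries, Irgm, Rtp4 and Gbp2 led. Next came Apold1 (0.856), which is outside the pathway lists and was at 0.124 over all 16. Tmem121 (0.844) and Ccdc125 (0.840), also outside the lists, ranked close behind, with 0.720 and 0.203 over all 16. With group means subtracted over 16 libraries, the highest were Lgals9 (0.966), Rtp4 (0.937) and Mx2 (0.936). Outside the pathway lists, RT1-N3 (0.909) and Ly6e (0.908) ranked high over the 16 libraries, and Ly6e (0.918) and Map2k5 (0.906) with group means subtracted. Rtp4 encodes a receptor-transporting protein, and Gbp2 and Irgm encode interferon-inducible GTPases.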

How the data were processed

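Bulk RNA-seq libraries of rat infarct zone (16, 4 in each of 4 groups) were grouped by their labels. The authors deposited expected counts per gene, estimates of reads that need not be whole, and TPM for the same genes. The submitters' processing notes name STAR 2.7.3a, RSEM 1.3.1 and build rn7. The annotation and the strand setting were not given in the sources used here; without a known strand setting, reads of a gene and its antisense partner cannot be told apart. Per the labels' protocols, libraries were made from mRNA with a NEBNext Ultra kit. No member overlapped another gene in the RefSeq table of GRCr8, and none had counts identical to another gene's.

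Counts were rounded (0.785% were not whole), filtered with filterByExpr and scaled by TMM. Groups were compared by edgeR's quasi-likelihood test (version 4.0.16, under R 4.3.3) with its robust option, all 16 libraries in 1 fit and Benjamini-Hochberg adjustment over 11376 genes, called at an adjusted p under 0.05. Differences are on the log2 scale with their SE. The fit was tested on simulated counts. Alternatives were DESeq2 1.42.0, limma 3.58.1 (voom, with and without library quality weights, and log2 of TPM plus 1 or 0.1), RLE factors, no filter, no mitochondrially encoded genes, only the 2 groups compared, a replicate block, each library left out, and the 4 libraries with fewest genes left out. The pathway lists without MI_soft 4, and with genes of identical counts taken once, were added after seeing the data. Each library was left out in turn, but MI_soft 4 was singled out after the members' values were seen.

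Relative transcript length was the counts divided by TPM. The members and the lists were chosen with earlier results of these data known. All members are named, and of the other pathway genes up to 20 called in any comparison with the smallest adjusted p; the pathway genes named for their level in MI_soft 4, the genes called without that library, and Ifnar1 were chosen after their values were seen.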

Additional observations from a re-analysis of the deposited data

Results flagged for a closer look

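Within the 32 sets of 4 libraries (8 members in 4 groups), 1 library stood apart from the other 3 by Dixon's ratio of gap to range, on log2 CPM, in 3 sets; chance gives about 1 in 20 sets. Irf1 in MI_soft 4, at 74.6 CPM against 29.2 to 30.9 CPM in the other MI_soft libraries, had a ratio of 0.939. Stat2 in MI 2, at 29.8 CPM against 52.9 to 56.6 CPM in the other MI libraries, had a ratio of 0.893; MI 2 had the fewest genes detected, 10470. Ifit2 in MI_stiff 4, at 24.04 CPM against 39.96 to 40.7 CPM in the other MI_stiff libraries, had a ratio of 0.965. Irf7 in MI_soft 4, at 1471 CPM, had a ratio of 0.662 and did not stand apart by this measure, with MI_soft 1 to 3 spread from 36.7 to 128 CPM. No cause of these values was tested.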

How the results depend on the processing

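Over all alternatives, a case was the difference of 1 member beyond its SE in 1 comparison and setting. Direction and side of the threshold were kept in 812 cases, a call was lost in 55 and gained in 19, and the sign changed in 10. Many of the 812 were differences that were called in neither fit. Over 28 alternatives each, in MI_soft against Sham Ifit3 lost its call in 13, Mx1 in 12, Isg15 in 9 and Irf7 in 7, and Irf9 kept it throughout. In MI against Sham Isg15 lost its call in 9, Irf9 in 4 and Ifit3 in 1. RLE factors, leaving out mitochondrially encoded genes and dropping the filter moved no count of members called by more than 1.5 times. For MI_soft against Sham, where 5 members were called, the count was 1 (Irf9) with limma-voom, with log2(TPM + 1), with log2(TPM + 0.1), with log2(TPM + 1) unfiltered and without the 4 libraries with fewest genes detected, and 2 (Irf7 and Irf9) with library quality weights and with only the 2 groups fitted. For MI against Sham, with 3 called, it was 5 with quality weights and 1 (Irf9) without those 4 libraries. The share of all genes called also moved: with quality weights it was 53.9% in MI_soft against Sham (26.1% in the fit reported) and 44.9% in MI against Sham (36.6%), and without those 4 libraries 36.8% and 27.3%. In MI_soft against Sham the share was 28.2% with limma-voom and 33.4% with only the 2 groups fitted. On the TPM scale it was 21.6% with log2(TPM + 1), 19.5% with log2(TPM + 0.1) and 15.2% with log2(TPM + 1) unfiltered. For MI_stiff against Sham, with 0 called, the count of members was 1 (Irf1) with quality weights, with only the 2 groups and without the 4 libraries with fewest genes detected. DESeq2 called 1 member in MI_stiff against MI (Ifit3) and 1 in MI_stiff against MI_soft (Irf7). With 1 library left out at a time, the members called ranged from 1 to 5 in MI against Sham, 1 to 6 in MI_soft against Sham, 0 to 1 in MI_soft against MI and 0 to 3 in MI_stiff against MI, and were 0 throughout in the other 2 comparisons. The share of all genes called ran from 28.6% to 43.7%, 18.6% to 29.3%, 0% to 13.1% and 0.0953% to 10.9% in the same order. In MI_stiff against Sham it ran from 14.6% to 27.9%, and in MI_stiff against MI_soft from 0.0347% to 0.494%. Signs changed in MI_soft against MI: with quality weights Irf7 was at -0.46 and Mx1 at -0.06; without the 4 libraries Stat2 was at -0.26, Irf7 at -0.30 and Mx1 at -1.10; and with 1 library left out Stat2 ranged from -0.02 to 0.60, Irf7 from -0.65 to 2.26 and Mx1 from -0.38 to 1.82. Without the 4 libraries Ifit2 was at -0.10 in MI against Sham and 0.05 in MI_stiff against MI; MI 1 is then the only MI library. The cause of these changes was not tested.

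Same-numbered libraries of different groups were no more alike than differently numbered ones, by the correlation of their deviations from the group means. It lay between -0.28 and 0.18 for the same number, with 5 of 24 pairs over 0.1. For different numbers it lay between -0.31 and 0.38, with 21 of 72 pairs over 0.1. Whether libraries shared a batch or a day was not tested. With the replicate block, 1 member (Irf9) was called in MI_soft against Sham, beside 22.6% of genes called, and no other count of members moved. With log2(TPM + 1) the median of all genes shifted by 0.21 in MI_stiff against Sham, 0.21 in MI_stiff against MI and 0.13 in MI_stiff against MI_soft, and with log2(TPM + 0.1) by 0.25, 0.27 and 0.17, so member values on that scale are relative to those shifts. Over all genes, MI against Sham had 2296 higher and 1869 lower calls with edgeR, 2333 and 2352 with DESeq2 and 1895 and 2337 with limma-voom. In MI_stiff against MI the calls were 56 and 79 with edgeR and 317 and 269 with DESeq2. Isg15 had 47 to 1529 counts per library, the fewest of the members in most libraries, which limits its precision.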
